A study of Homo sapiens with 4 samples.

Results

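The genes described here encode 7 proteins that the liver secretes and 1 liver enzyme that activates thyroid hormone. They were chosen by name, with earlier results of these data in view: LEAP2, FGF21, GDF15, INHBE, AGT, THPO and FETUB for the secreted proteins, and DIO1 for the enzyme. Of these 8 genes, 7 could be read, by 11 probe sets, among 19775 genes and 41091 probe sets with exactly 1 gene symbol. THPO (thrombopoietin), which drives platelet production, was not analysed here. The choice rested on the same 4 arrays, so the values below are a description and carry no test.

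Transcripts were measured in HepG2, an established human line from a liver cancer that retains much of the hepatocyte's secretory programme. All cells were deprived of serum first, for 24 h by the series' design text and overnight by the labels' protocol. The groups were 2, 6 and 12 h with 200 ng/ml APRIL (a TNF-family cytokine) and an untreated 0 h group, each hybridised to 1 Affymetrix Human Genome U133 Plus 2.0 array. No untreated array of a later time was used here, so time without serum and time with APRIL cannot be told apart.

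Hepatocytes release hormones into the blood that report on feeding, stress and organ function. FGF21 acts through the receptor FGFR1 with the co-receptor KLB, GDF15 acts in the brainstem through GFRAL and RET to curb appetite, and INHBE encodes the subunit of activin E, a TGF-beta family ligand. All 3 genes are known to be induced when cells under stress translate the transcription factor ATF4. LEAP2 is a peptide that blocks the ghrelin receptor GHSR. Angiotensinogen, from AGT, is the precursor of the angiotensin peptides, which raise blood pressure, and fetuin-B, from FETUB, is a plasma protease inhibitor that, in the mouse, keeps the egg fertilisable. DIO1 is the selenium-containing deiodinase that converts the prohormone T4 to active T3 in liver.

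The deposited values are relative to each probe set's own median over the 4 arrays, so they show change and hold no expression level. They do not show whether a gene or a marker of the labelled cell type is expressed. They were read as log2 values, with a higher value as more transcript. The sources used here state neither the base nor the direction, and every fold below rests on both. Of 9 hepatocyte markers 8 were read, with a median log2 ratio of 0.02 at 12 h over 0 h and a range from -1.08 to 0.46. The lowest was APOB, whose 2 probe sets were far apart (SD 1.40), and albumin (ALB) was at 0.05. In bulk RNA, a smaller share of cells that express a gene and less RNA per cell cannot be told apart.

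On the 12 h array INHBE was higher than at 0 h by 2.36-fold, and LEAP2 and DIO1 were lower by 3.65-fold and 3.70-fold. The other readable genes, FGF21, GDF15, AGT and FETUB, had gene ratios (the median over the probe sets of a gene) within 0.10 of 0 on the log2 scale at that time. For GDF15 and FETUB 1 probe set each lay apart from this median, at 0.99 and 0.84. Of the 7 genes, 1 was at or past 2-fold higher and 2 at or past 2-fold lower at 12 h. Over all 19775 genes 0.946% were at or past 2-fold higher and 0.986% at or past 2-fold lower at 12 h. These 12 h values are ones the choice of genes rested on, so the shares are given as background and nothing is read from them.

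At 2 h none of the 7 genes was past 2-fold in either direction, beside 0.0354% higher and 0.0101% lower over all genes. At 6 h again none was, beside 0.101% higher and 0.283% lower over all genes. The median log2 ratio of the 7 genes was 0.02, 0.04 and -0.04 at 2, 6 and 12 h over 0 h, and that of all genes was 0.02, 0.05 and 0.01. Since each time has a single array, no replicate error can be given. As a yardstick, the gene ratios of 2 h over 0 h had a robust SD of 0.16 over all genes, which holds any response at 2 h as well as noise.

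**Figure D1:**
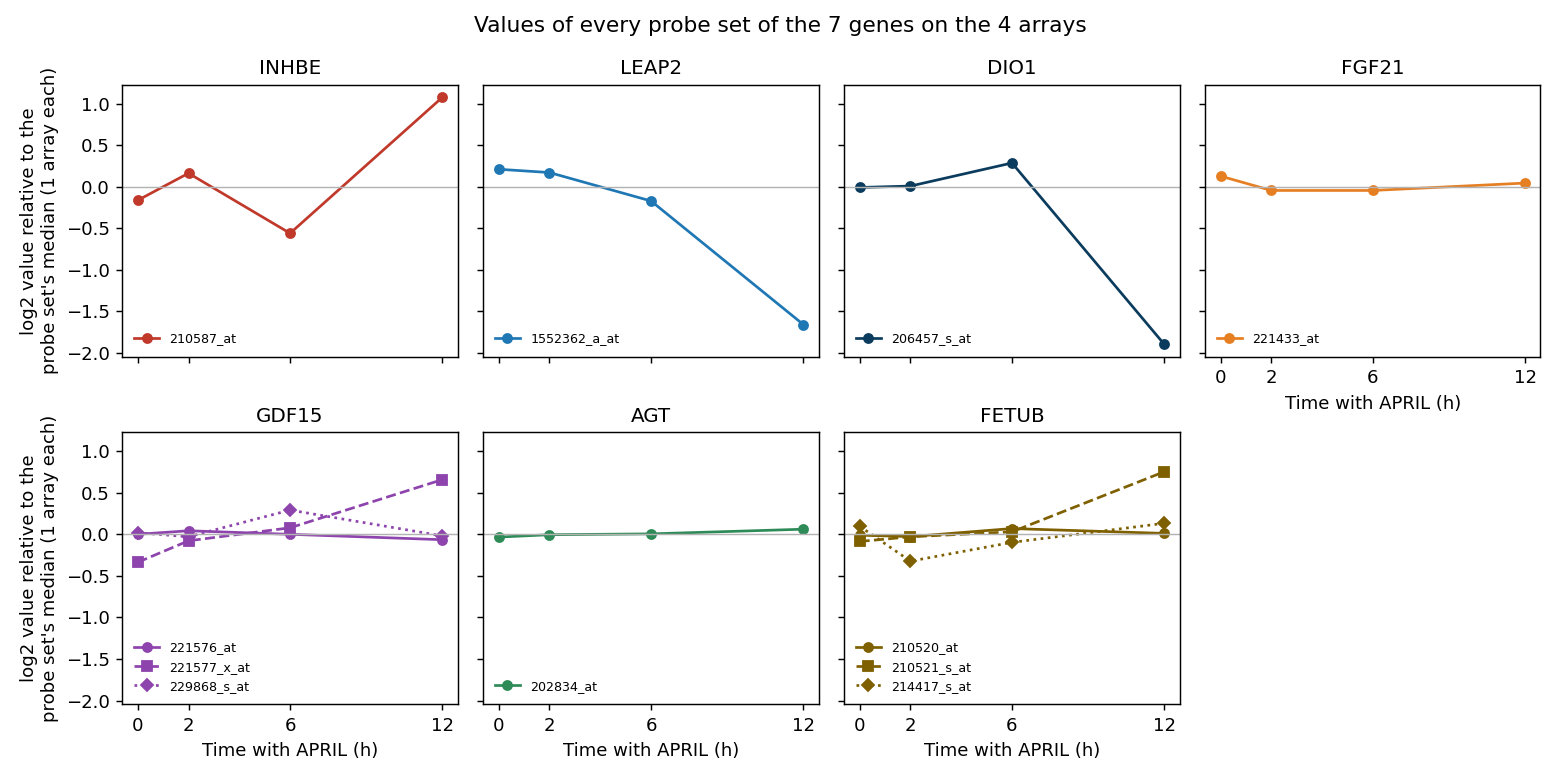
Deposited log2 value (vertical axis, relative to the probe set's median) on each of the 4 arrays against time with APRIL in hours, with 1 panel per gene and 1 line per probe set. INHBE ends at 1.08, LEAP2 at -1.66 and DIO1 at -1.90 at 12 h, while 2 of the 3 probe sets of GDF15 and of FETUB lie between -0.07 and 0.13 there.

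LEAP2, read by probe set 1552362_a_at, had values of 0.21, 0.17, -0.17 and -1.66 at 0, 2, 6 and 12 h. Its value was lower on each later array, and most of the difference lay between 6 and 12 h. The log2 ratio to 0 h was -0.04, -0.38 and -1.87 at 2, 6 and 12 h. Between the 12 h and 6 h arrays it was -1.49, or 2.80-fold lower. Only 16 of all genes had a lower ratio than LEAP2 at 12 h over 0 h.

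DIO1, read by probe set 206457_s_at, had values of -0.01, 0.01, 0.29 and -1.90 at 0, 2, 6 and 12 h. The 6 h array was the highest of the 4 and the 12 h array the lowest. Its log2 ratio to 0 h was 0.02, 0.29 and -1.89 at 2, 6 and 12 h, and only 15 of all genes had a lower ratio at 12 h, so DIO1 and LEAP2 were neighbours in that order. Their 12 h ratios differed by less than the yardstick of 0.16. Against 6 h, DIO1 was lower by 4.54-fold on the 12 h array, a log2 ratio of -2.18, with 9 of all genes lower. The name of this probe set ends in _s_at, which marks probes that can match several transcripts, and no other probe set of DIO1 was read.

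INHBE, read by probe set 210587_at, had values of -0.16, 0.16, -0.56 and 1.08 at 0, 2, 6 and 12 h. It went in both directions over the course, with the lowest value at 6 h and the highest at 12 h. The log2 ratio to 0 h was 0.33, -0.40 and 1.24 at 2, 6 and 12 h. At 12 h over 6 h the ratio was 1.64, or 3.11-fold, and 23 of all genes had a higher one. At 12 h over 0 h 84 genes lay above INHBE.

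Between 12 h and 6 h, the same 3 genes were past 2-fold, INHBE higher and LEAP2 and DIO1 lower, beside 0.799% higher and 0.885% lower over all genes. Each of these 3 genes is read by 1 probe set, so no second reading on the same array checks the value. Among the 9252 genes with 1 probe set, 1.12% were past 2-fold higher and 1.13% past 2-fold lower at 12 h over 0 h.

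**Figure D2:**
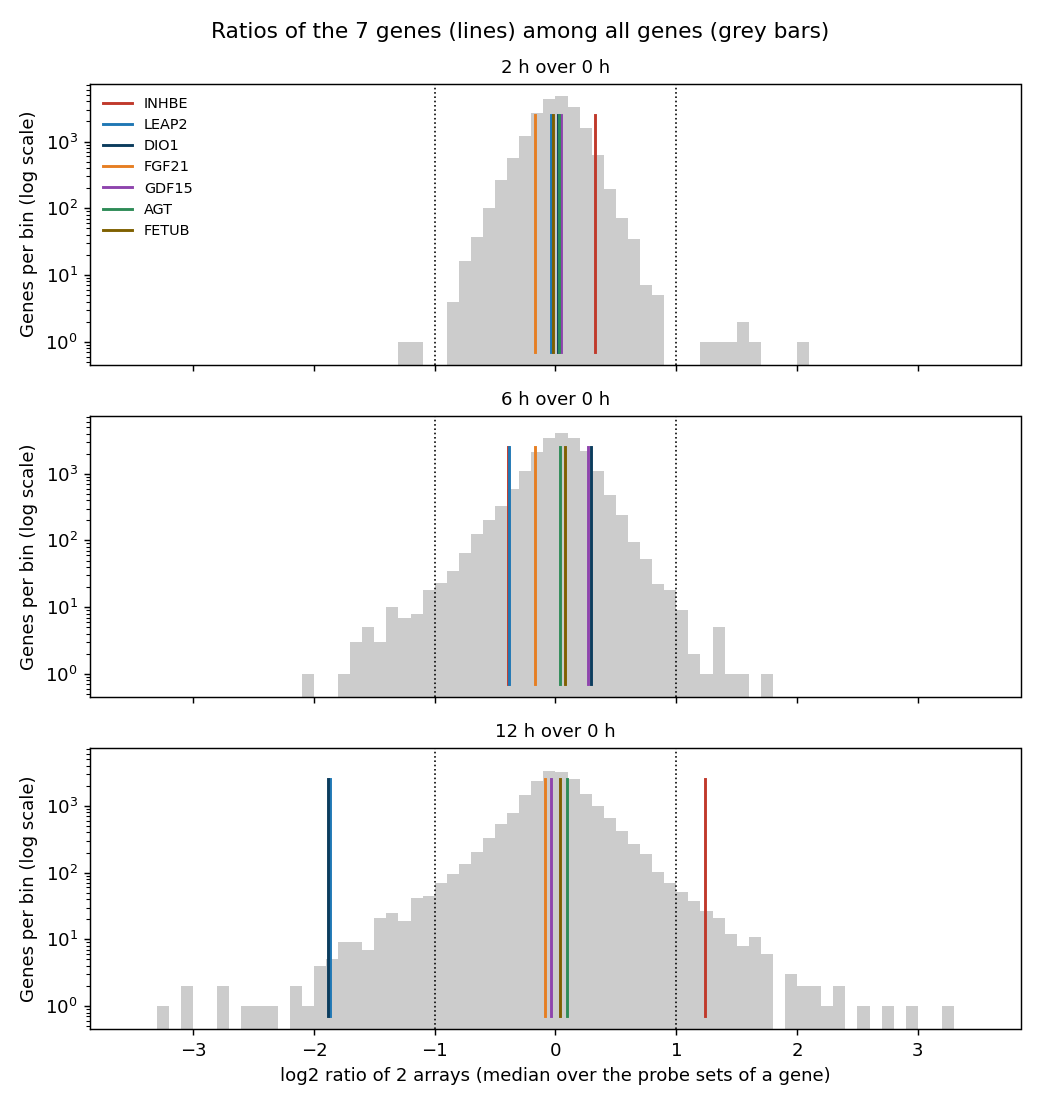
Distribution of the log2 ratios of all 19775 genes (grey bars, genes per bin of the ratio on a log scale) at 2, 6 and 12 h over 0 h, with a coloured line at the ratio of each of the 7 genes and dotted lines at 2-fold. At 12 h DIO1 (-1.89) and LEAP2 (-1.87) lie in the lower tail and INHBE (1.24) in the upper tail.

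LEAP2 lies on chromosome 5 at 132873668-132875046 and DIO1 on chromosome 1 at 53894187-53911086 in GRCh38.p14. Their promoters are shown because these are the 2 genes that were lower together at 12 h. Each window holds the 250 bases before the gene's start in the RefSeq annotation of GRCh38.p14, on the plus strand, at chr5:132873418-132873667 for LEAP2 and chr1:53893937-53894186 for DIO1. Capitals mark matches, on either strand, to 4 motifs that were searched: the TATA box TATAAA, the nuclear receptor half-site AGGTCA, the AP-1 site TGANTCA and the C/EBP-ATF element TGATGNAAN.
LEAP2: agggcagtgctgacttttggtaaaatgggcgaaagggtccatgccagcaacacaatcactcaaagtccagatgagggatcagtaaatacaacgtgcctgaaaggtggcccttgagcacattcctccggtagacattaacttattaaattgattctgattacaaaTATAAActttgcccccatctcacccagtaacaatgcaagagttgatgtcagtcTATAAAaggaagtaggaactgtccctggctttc
DIO1: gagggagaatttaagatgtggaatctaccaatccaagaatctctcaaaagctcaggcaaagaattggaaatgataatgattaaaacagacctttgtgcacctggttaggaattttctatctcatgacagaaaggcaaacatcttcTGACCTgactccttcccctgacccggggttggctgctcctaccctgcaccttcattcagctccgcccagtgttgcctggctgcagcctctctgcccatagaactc

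The LEAP2 window holds TATAAA at 2 places, of which the nearer begins 33 bases before the start, and 11.1% of 27305 promoter windows of this length hold that motif. The DIO1 window holds AGGTCA once, on the opposite strand, where it reads TGACCT and begins 105 bases before the start, and 12.1% of all windows hold it. Neither of the 2 windows holds a match to the other 2 motifs. These matches are letters in a window and were not tested for binding. None of the windows of the readable genes held the AP-1 site, which 6.6% of all windows hold, and the table has no window for INHBE.

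Beside LEAP2, other genes of the ghrelin system and hepcidin were read. GHSR, the ghrelin receptor, was at 0.19 (SD 0.17 over 3 probe sets) and GHRL, which encodes ghrelin, at -0.01 (SD 0.01 over 2) on the log2 scale at 12 h over 0 h. HAMP encodes hepcidin, the iron-regulating hormone that was also first described as a liver antimicrobial peptide. Its log2 ratio to 0 h was 0.41, -1.16 and -1.13 at 2, 6 and 12 h. HAMP was thus past 2-fold lower on the 6 h array, where LEAP2 was at -0.38. Like LEAP2, HAMP is read by 1 probe set, so no second reading checks this order. Of the 4 genes of this list that were read, HAMP was the one past 2-fold at 6 or 12 h. The shares past 2-fold lower over all genes were 0.283% at 6 h and 0.986% at 12 h.

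For DIO1, the other genes that handle thyroid hormone were read as a list of 16, of which 14 had a value. None of the 14 was past 1.5-fold in either direction at 2, 6 or 12 h over 0 h. Of all 19775 genes, 61 were past it higher and 68 lower at 2 h, and 227 and 324 at 6 h. At 12 h 4.46% of all genes were past it higher and 3.7% lower, so none in so short a list says little. The median log2 ratio of the 14 at 12 h was 0.04, with a range from -0.14 to 0.46. The highest at 12 h was TTR (transthyretin), a plasma carrier of thyroid hormone, at 0.46. DIO2, the other activating deiodinase, was at -0.14 (SD 0.27 over 5 probe sets) and DIO3, the inactivating one, at -0.07. THRB, the main thyroid hormone receptor of liver, was at 0.35 (SD 0.25 over 3 probe sets) at 6 h and at 0.01 (SD 0.18) at 12 h.

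DIO1 is made with selenocysteine, so the genes of selenocysteine insertion and other selenoproteins were read too. All 16 had a value, with a median of 0.0048 at 12 h over 0 h. None of them was past 2-fold at 2, 6 or 12 h, beside 0.946% higher and 0.986% lower over all genes at 12 h. At 12 h 3 of the 16 were past 1.5-fold higher and none past 1.5-fold lower, beside 4.46% and 3.7% of all genes. SELENOS, a selenoprotein of the endoplasmic reticulum, was highest at 0.66. SEPSECS, the enzyme that makes selenocysteine on its tRNA, was at -0.65 at 6 h (SD 0.45 over 5 probe sets) and at 0.13 (SD 0.11) at 12 h.

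INHBE was the member that was past 2-fold higher, and its family was read as 18 activin and inhibin genes, receptors and inhibitors. At 12 h over 0 h their median was 0.15, with 1 past 2-fold higher, 4 past 1.5-fold higher and none past 1.5-fold lower, beside 0.946%, 4.46% and 3.7% of all genes. The gene past 2-fold was BAMBI, a decoy receptor for TGF-beta family ligands, at 1.11, and at 6 h it was at -0.18. BAMBI is read by 1 probe set. Of the other activin subunits, INHBA was at -0.33 (SD 0.06 over 3 probe sets), INHBB at 0.24 and INHBC at -0.50 (SD 0.53 over 2 probe sets) at 12 h.

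INHBC, also a subunit made by liver, is the nearest relative of INHBE by position. INHBE lies on chromosome 12 at 57455307-57458025, and INHBC lies 3244 bases away with no protein-coding gene between them in GRCh38.p14. The log2 ratios of this pair at 12 h over 0 h were 1.24 for INHBE and -0.50 for INHBC, whose probe sets ranged from -0.88 to -0.13. At 6 h INHBC was at -0.01 and INHBE at -0.40.

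FGF21, read by probe set 221433_at, had values of 0.13, -0.04, -0.04 and 0.04 at 0, 2, 6 and 12 h. Its whole range over the 4 arrays was 0.17. The log2 ratio to 0 h was -0.17, -0.17 and -0.08 at 2, 6 and 12 h, beside the yardstick of 0.16 for ratios of 2 arrays. Because the values hold no level, a gene with little transcript and a gene with a steady level cannot be told apart here.

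Among 8 FGF receptors, co-receptors and related ligands, none was past 2-fold at 2, 6 or 12 h over 0 h. Over all genes 0.946% were past it higher and 0.986% lower at 12 h, so none in so short a list says little. The co-receptor KLB was highest, at 0.97 (SD 0.46 over 2 probe sets) at 6 h and 0.62 (SD 0.23) at 12 h, with probe sets from 0.65 to 1.29 at 6 h. FGFR1 was at -0.34 (SD 0.25 over 7 probe sets) at 6 h and -0.03 (SD 0.41) at 12 h. FGF19, the related hormone that limits bile acid synthesis, was at 0.42 at 6 h and 0.23 at 12 h.

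GDF15 is read by 3 probe sets that parted at 12 h. Probe set 221577_x_at had values of -0.34, -0.08, 0.08 and 0.66 at 0, 2, 6 and 12 h, higher on each later array. Probe set 221576_at had 0.00, 0.04, 0.00 and -0.07 at these times, and 229868_s_at had 0.02, -0.03, 0.29 and -0.02. At 12 h over 0 h the log2 ratios were 0.99 for 221577_x_at, just below 2-fold, -0.07 for 221576_at and -0.04 for 229868_s_at. The gene ratio, their median, was 0.04 at 2 h and 0.27 at 6 h. At 12 h it was -0.04 (SD 0.60).

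For GDF15 the 12 h value therefore depends on which probe set is read, and with the probe set of the widest range it is 0.99. Its gap of 1.06 between the highest and lowest probe set at 12 h can be set against 5508 genes with 3 or more probe sets, where the median gap was 0.53 and 14.5% had a gap at least as wide. The probe set that was high ends in _x_at, which marks probes that can also match other transcripts. Of the receptor, RET was read and was at -0.09 (SD 0.11 over 3 probe sets) at 12 h.

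The integrated stress response, through which INHBE, FGF21 and GDF15 are known to be induced, was read as 20 other genes. Their median ratio to 0 h was 0.17, 0.04 and 0.68 at 2, 6 and 12 h, beside 0.01 for all genes at 12 h. At 12 h, 19 of 20 were above 0, 12 were past 1.5-fold higher and 4 past 2-fold higher, and none was past 1.5-fold lower. The shares of all genes at these thresholds were 4.46%, 0.946% and 3.7%. PPP1R15A, which restores translation, was at 1.31 (SD 0.30 over 2 probe sets) and DDIT4, an inhibitor of mTORC1, at 1.13. ATF3 was at 1.23 with its 3 probe sets between -0.04 and 1.83. DDIT3 (CHOP) was at 0.99 and ATF4 itself at 0.37.

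Set beside this list at 12 h, INHBE at 1.24 lay near its top, where the highest gene was at 1.31. FGF21 at -0.08 lay just below the whole list, whose lowest gene was at -0.03. GDF15 has no clear place in it, being at -0.04 by the median of its probe sets, at 0.30 by their mean and at 0.99 by the one with the widest range. At 6 h INHBE, at -0.40, was lower than at 0 h, while the list was split, with 11 genes above 0 and 9 below. Its lowest gene then was the cystine transporter SLC7A11, at -1.50 (SD 0.24 over 3 probe sets), and its highest was DDIT4, at 0.47. SLC7A11 was at 0.53 (SD 0.13) at 12 h. The list was chosen with the earlier results known, so its direction is not independent evidence.

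GDF15 is also known as a target of p53, and 10 of 12 other p53 targets were read. None was past 2-fold at 2, 6 or 12 h over 0 h, beside 0.946% higher and 0.986% lower over all genes at 12 h. At 12 h none was past 1.5-fold, beside 4.46% higher and 3.7% lower over all genes, and their median was 0.01. SESN1 was at 0.69 at 6 h and 0.01 at 12 h, and TP53I3 was at -0.54 at 12 h.

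The FGF21 promoter is shown because FGF21 is the member known from the stress response whose window held the C/EBP-ATF element, the composite site that ATF4 and C/EBP factors bind. FGF21 lies on chromosome 19 at 48755524-48758330, and the window is chr19:48755274-48755523 on the plus strand of GRCh38.p14, from RefSeq. Capitals mark the match to TGATGNAAN, which stands here on the opposite strand, 55 to 47 bases before the start.
FGF21: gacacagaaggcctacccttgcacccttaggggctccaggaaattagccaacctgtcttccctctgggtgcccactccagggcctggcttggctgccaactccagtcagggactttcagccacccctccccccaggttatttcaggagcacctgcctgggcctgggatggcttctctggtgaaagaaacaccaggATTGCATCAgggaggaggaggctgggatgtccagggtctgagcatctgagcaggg

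This motif is held by 3.18% of 27305 promoter windows. The window listed for AGT, at chr1:230714123-230714372 on the minus strand, also holds it, as TGATGTAAC, 97 to 89 bases before the transcript start that follows. That start lies inside the annotated span of AGT, at 230702523-230745583, and not at its outer end. The GDF15 window, at chr19:18385908-18386157, has no match to it and holds TATAAA once. Among the members with a window, FGF21 and AGT were the 2 that held the element, and both were within 0.10 of 0 at 12 h over 0 h. INHBE had no window, so whether its promoter holds the element is not known here. A link between the element and the values was not tested.

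AGT, read by probe set 202834_at, had values of -0.03, -0.01, 0.01 and 0.06 at 0, 2, 6 and 12 h. Its range of 0.09 was the narrowest of the 11 probe sets. The log2 ratio to 0 h was 0.03, 0.04 and 0.09 at 2, 6 and 12 h, all below the yardstick of 0.16.

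Of 14 other genes of the angiotensin system, 11 were read, and none was past 1.5-fold at 2, 6 or 12 h over 0 h. Over all genes 4.46% were past 1.5-fold higher and 3.7% lower at 12 h, and fewer at 2 and 6 h, so this count says little. At 12 h they ranged from -0.22 to 0.22. ACE, which makes angiotensin II, was at -0.05 (SD 0.24 over 2 probe sets) and its receptor gene AGTR1 at -0.01 (SD 0.05 over 2). MAS1, a receptor for a shorter angiotensin peptide, had the largest ratio of this list, -0.57 at 2 h.

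FETUB is read by 3 probe sets, and like GDF15 it had 1 that parted from the others at 12 h. Probe set 210521_s_at had values of -0.09, -0.03, 0.03 and 0.75 at 0, 2, 6 and 12 h. Probe set 210520_at had -0.01, -0.03, 0.07 and 0.01, and 214417_s_at had 0.10, -0.32, -0.10 and 0.13. The log2 ratios at 12 h over 0 h were 0.84, 0.02 and 0.04 in this order, which gave a gene ratio of 0.04 (SD 0.47). At 2 h the gene ratio was -0.02, with probe sets from -0.42 to 0.06, and at 6 h it was 0.08. A gap between probe sets at least as wide as the 0.82 of FETUB at 12 h was found in 25.7% of the 5508 genes with 3 or more.

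FETUB lies on chromosome 3 at 186635969-186653141, in a row with other genes of the cystatin superfamily. AHSG (fetuin-A) lies 14650 bases to one side and HRG 12872 bases to the other. AHSG was at 0.06 (SD 0.07 over 2 probe sets) and HRG at 0.49 (SD 0.57 over 2) at 12 h over 0 h, and KNG1, the next relative, at -0.15 (SD 0.42 over 3). Of the 6 fetuin and cystatin genes read, none was past 2-fold at 2, 6 or 12 h. Beside 0.946% higher and 0.986% lower over all genes at 12 h, this count says little. The highest of the 6 at 12 h was CSTA, a cysteine protease inhibitor of epithelia, at 0.86.

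THPO itself was not analysed here. Of 10 genes of its signalling and of platelet sensing, 8 were read and none was past 2-fold at 2, 6 or 12 h over 0 h. With 0.946% of all genes past it higher and 0.986% lower at 12 h, this count says little. ASGR1 and ASGR2, the receptor subunits through which the liver senses aged platelets, were at -0.05 and 0.09 at 12 h. STAT3 was at 0.68 (SD 0.50 over 4 probe sets).

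**Figure D3:**
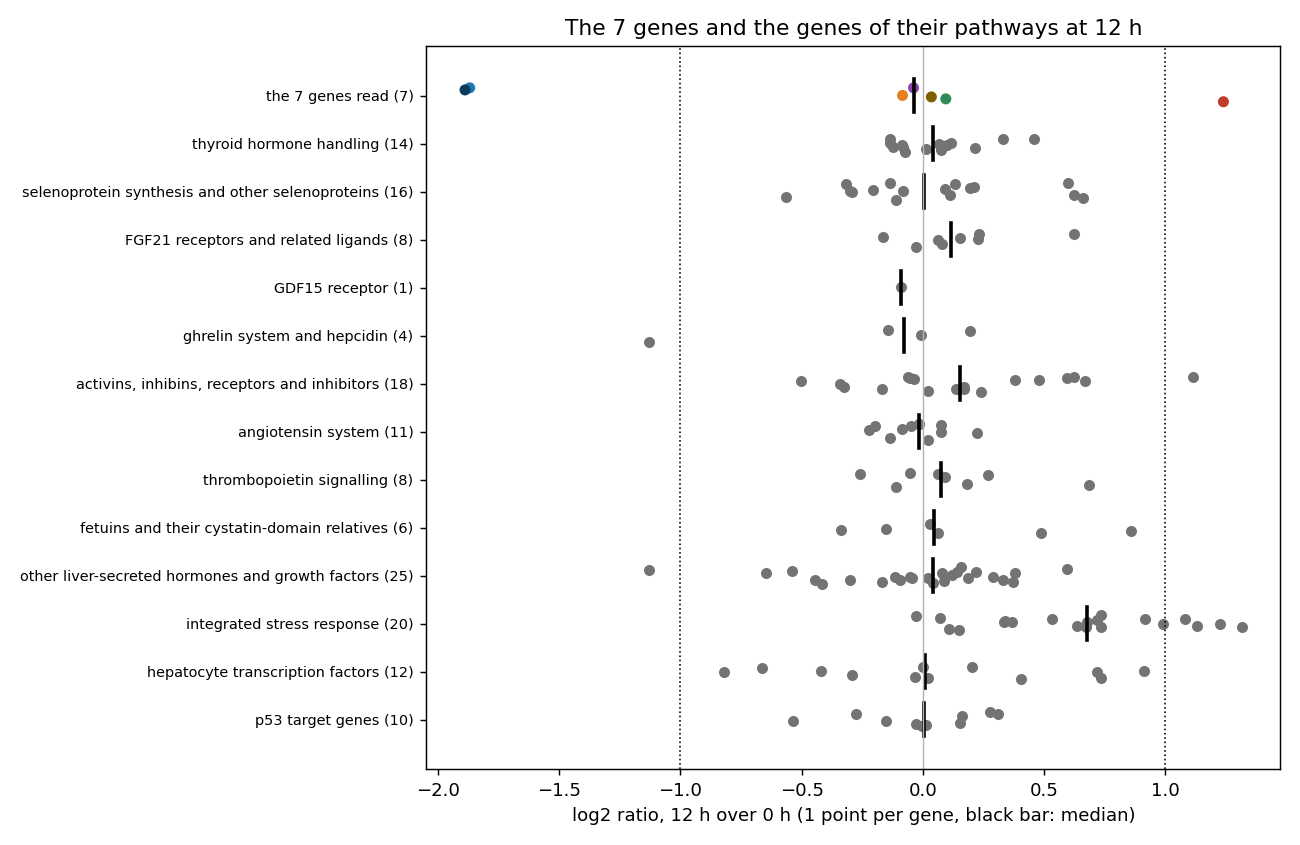
Log2 ratio at 12 h over 0 h (horizontal axis) of the 7 genes in the top row and of the genes of each pathway list below it, 1 point per gene with the number read in brackets, a black bar at the median and dotted lines at 2-fold. The integrated stress response list has its median at 0.68, and the medians of the other lists lie between -0.09 and 0.15.

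As a wider setting, 25 of 30 other hormones and growth factors of liver were read. At 12 h over 0 h their median was 0.04, with 14 above and 11 below 0. Over all genes the median was 0.01, with 10217 above and 9435 below 0. HAMP was the 1 gene of the 25 past 2-fold, lower, beside 0.986% of all genes. LEAP2 and DIO1 were lower than every gene of this list, whose lowest value was -1.13, and INHBE was higher than every gene of it, whose highest was 0.59. Since the 3 were picked for these values, this order is a description.

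Of 15 transcription factors that set hepatocyte identity, 12 were read. Their median was -0.28 at 6 h and 0.01 at 12 h over 0 h, beside 0.05 and 0.01 for all genes. Without the probe sets ending in _x_at or _s_at their 6 h median was -0.079. None of the 12 was past 2-fold at these times. Over all genes 0.101% were past it higher and 0.283% lower at 6 h, and 0.946% and 0.986% at 12 h. PROX1 was at -0.93 (SD 0.55 over 4 probe sets) at 6 h, and NR0B2 (SHP), which represses bile acid synthesis, was at 0.91 at 12 h. Markers of other cell types, 13 of 14 genes of immune cells, fibroblasts and endothelium, were between -0.30 and 0.89 at 12 h, with PDGFRB at the top. Their part in the values of the 7 genes was not tested.

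The genes whose 4 values were most like those of each member past 2-fold were found by the root-mean-square difference of log2 values over the 4 arrays, each profile centred on its mean, among genes with 2 or more probe sets. For LEAP2 these were DAB2 (0.09, over 7 probe sets), CHST9 (0.12) and GPX3 (0.12). DAB2 was at -1.95, CHST9 at -1.82 and GPX3 at -1.56 at 12 h over 0 h. For DIO1 they were RRM2 (0.13), TNFSF10 (0.15) and MCM10 (0.17), at -1.91, -1.57 and -1.83. For INHBE they were UBASH3B (0.11, over 5 probe sets), FRMD6 (0.14) and KDM7A (0.15), at 1.21, 1.27 and 1.43.

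The profiles of LEAP2 and DIO1 differed from each other by 0.29 on this measure. The genes just named were picked as the nearest, so their smaller differences are no yardstick for this pair. LEAP2 was already lower than at 0 h at 6 h, by -0.38, where DIO1 was at 0.29. AGT and FETUB were the closest pair among the 7, at 0.03, which reflects that the gene values of both stayed near 0. For FETUB this is the median of its probe sets, of which 210521_s_at was at 0.84 at 12 h over 0 h. DIO1 and INHBE were the farthest apart, at 1.45.

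The 12 h directions are relative to the median gene. The 18 probe sets of bacterial and phage RNAs added before hybridisation were lower at 12 h than at 0 h in 18 of 18 cases, with a median of -0.35 on the log2 scale. Centred on them, 694 genes were past 2-fold higher and 76 lower at 12 h, in place of 187 and 195, and the median of all genes was 0.36. LEAP2 was then at -1.51, DIO1 at -1.53 and INHBE at 1.59, each still past 2-fold. Under that centring FGF21, GDF15, AGT and FETUB lay above 0 at 12 h, at 0.27, 0.31, 0.45 and 0.39.

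**Figure D4:**
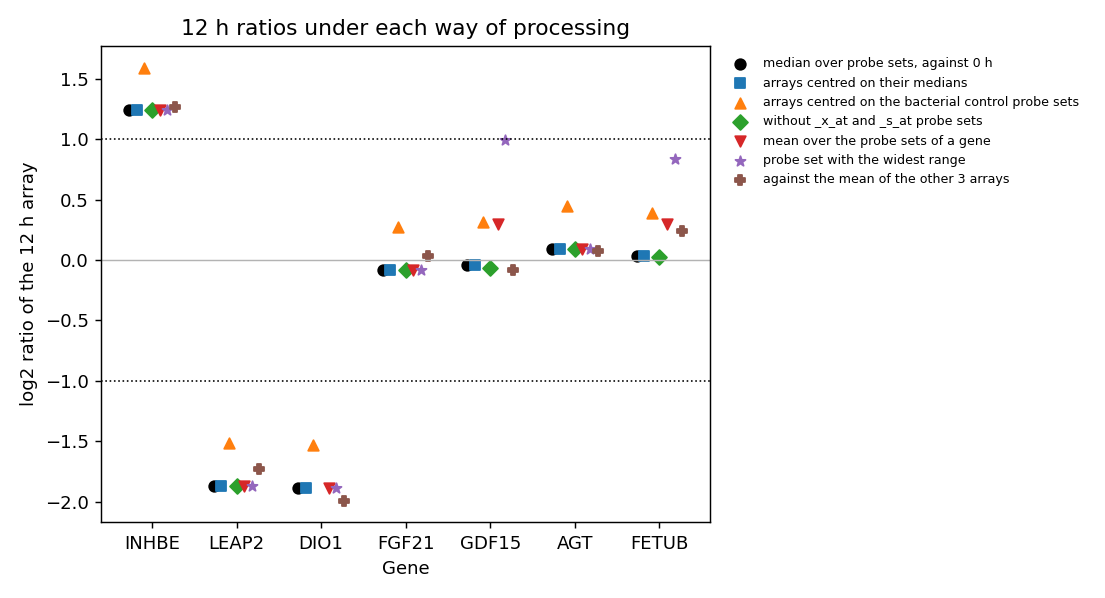
Log2 ratio of the 12 h array (vertical axis) for each of the 7 genes (horizontal axis), with 1 symbol for each way of processing and dotted lines at 2-fold. INHBE, LEAP2 and DIO1 stay past 2-fold in every setting drawn, except that DIO1 has no value once probe sets ending in _x_at or _s_at are left out, and GDF15 and FETUB reach 0.99 and 0.84 with the probe set of the widest range.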

How the data were processed

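Per the submitters' processing notes, the authors made the deposited values with RMA, whose version is not given. The deposited values were taken as log2, the scale RMA usually gives. In the deposited table of 54675 probe sets every row's median over the 4 arrays was 0 within 1e-06, so rows had been centred. The step that did this, the log base and the direction are not given in the sources used here.

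Genes were named through the platform annotation, updated by gene identifier to RefSeq (GRCh38.p14), for the 41091 probe sets with exactly 1 symbol. For each gene the median of its probe sets' log2 ratios was used, and genes were counted from 2-fold (1 on the log2 scale) upward in size. No test was possible with 1 array per time, and the number of arrays limits the precision. SDs are over the probe sets of a gene. Of 173 entries in 13 pathway lists, 153 were read, and the others were not analysed here.

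The members and lists were chosen with earlier results of these data known. Named genes were all members with every probe set, fixed receptors and partners, the list genes past 2-fold at any time (at most 4 a list, else the 2 largest), and the 3 genes most like each member whose values span 1 or more. KNG1, a neighbour of FETUB, and the markers APOB, ALB and PDGFRB fall outside this rule and were named after their values were seen. Promoters came from the RefSeq table. The computation was tested on simulated data and used Python 3.11.15, pandas 2.3.3 and numpy 2.4.6. Alternatives were 2 centrings, other probe set rules, other thresholds and another baseline.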

Additional observations from a re-analysis of the deposited data

How the results depend on the processing

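LEAP2, DIO1 and INHBE kept their direction at 12 h and stayed past 2-fold under each setting that gave a value. Centred on the bacterial and phage control probe sets they were at -1.51, -1.53 and 1.59. At 3-fold, 0 members were past the threshold higher. Without probe sets ending in _x_at or _s_at, 1 was past 2-fold lower, since DIO1 has no other probe set. The count of all genes past the threshold at 12 h was 770 with control centring, 1021 with the widest probe set, 1612 at 1.5-fold and 71 at 3-fold, against 382. At 6 h it was 414 with the widest probe set, 551 at 1.5-fold, 8 at 3-fold and 50 against the mean of the other 3 arrays, against 76. At 2 h it was 4 without the _x_at and _s_at probe sets, 19 with the widest probe set, 129 at 1.5-fold, 2 at 3-fold and 20 against the mean of the other 3 arrays, against 9. Of 106 further settings of single member values, 92 moved by less than the yardstick (0.16, or the SD over probe sets where larger) and 14 by more. Without replicates or levels, weak signals could not be set apart from background. No paired analysis was possible because there was 1 array per time.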
